A study of Mus musculus with 6 samples.

Results

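The genes described here are those that the array names Gpr followed by a number, a label given to G protein-coupled receptors before a ligand or a family name was assigned. The array carried 95 such genes on 117 probes, and 42 of them gave a signal well above background on 3 or more of 6 arrays. The probe with the highest mean signal stood for each gene. Members were chosen by name and by detection. For Gpr12 and Gpr44 detection was not independent of the comparison, since they met the limit only through the cells in which they were higher.

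Total RNA came from γδ T cells of the spleen of Eomes-IRES-GFP mice on a C57BL6 background, in which green fluorescent protein (GFP) is made from the Eomes locus and marks cells that express this T-box transcription factor. B220+, CD4+ and CD8β+ cells were depleted, and TCRβ-negative, TCRγδ-positive, CD3-positive cells were sorted as GFP+ or GFP-. Each of 3 independent sorts pooled the spleens of 4 to 6 mice, aged 9, 9.5 and 7.5 weeks in sorts 1, 2 and 3, and gave 1 GFP+ and 1 GFP- sample (n = 3 per group). All mice carried the reporter allele, so GFP- cells differ from GFP+ cells by reporter signal and not by genotype. RNA input was 9 ng per sample in sorts 1 and 2 and 4 ng in sort 3.

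G protein-coupled receptors cross the membrane 7 times and pass a signal from outside the cell to a heterotrimeric G protein. Receptors coupled to Gs raise cyclic AMP, those coupled to Gi lower it, and other classes of G protein act through phospholipase C or small GTPases. Several Gpr-named receptors on lymphocytes respond to lipids, among them lysophosphatidylserine and oxysterols, or to protons. Adhesion receptors form another branch, with a long extracellular part that can bind matrix or other cells.

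Each probe is a 60-base oligonucleotide, and its hybridisation is what every level below measures. The first 30 bases of the probes behind 7 receptor genes that passed the test are shown, 5′ to 3′ as in the array files. These stretches are only a part of each probe, and which transcript a probe reads was not annotated. Gpr174 had 2 probes, and both are given.
Gpr12: gaagcaatgacatcttttagacacgtattg
Gpr44: gcccagagctgtacttatgcagataccaat
Gpr146: caaaattctgtgaatgtgaaaaagaaacta
Gpr133: ttttttaatactcgctcttatgtagctgat
Gpr34: gactgagttgaaatgtcagtgaacatgagt
Gpr160: ggtattaatccaaatgcaaagtaaacacat
Gpr174, main probe: cttttgggttaacttccaagatactgtgaa
Gpr174, other probe: cacaatggatttctgtggttatgtatacaa

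Between 47.7% and 56.6% of all probes were well above background per array, and the raw 75th percentile was 1581 to 1684 intensity units in sorts 1 and 2 and 534.1 and 549.5 in sort 3. A level is a log2 signal from which the 75th percentile of its array was subtracted. A difference is GFP+ minus GFP- on that scale, and ± gives the SD of 3 arrays. Eomes differed by 4.76 (SE 0.59, limma adjusted p = 0.0178), in the direction of the labels. Cd3d, Cd3e, Cd3g and Cd247, chains of the CD3 complex, were well above background on all 6 arrays. Of 6 genes listed as markers of the labelled cells, only these 4 were found by name. They are shared with αβ T cells and do not tell γδ T cells apart from them. Marker genes of myeloid cells, which the gate did not select, were measured too, and their summed level was 288 and 310 times the 75th percentile in sort 2 (GFP+ and GFP-), against 16.1 to 38.9 on the other 4 arrays. Of 13 myeloid markers tested, 0 passed the test (limma; 0 at an unadjusted p under 0.05). Natural killer cell and ILC1 markers summed to 108, 189 and 130 in GFP+ and to 59.1, 172 and 49.4 in GFP- sorts 1, 2 and 3, and 6 of 14 tested were higher in GFP+ cells. Markers of αβ T cells summed to 15.2 to 20.3 in GFP+ and 21.2 to 28.6 in GFP-, with 1 of 9 tested lower, Cd8b1. B cell markers summed to 10.2 to 20.8 in GFP+ and 16.9 to 25.4 in GFP-, with 0 of 10 tested passing (limma; 1 at an unadjusted p under 0.05). Dendritic cell markers summed to 93.3, 96.5 and 67.4 in GFP+ and to 108, 117 and 88.9 in GFP- sorts 1, 2 and 3, with Itgax higher (3.65) and Ccr9 lower (-4.23) of 8 tested. Erythroid markers summed to 50.5 on both arrays of sort 1 and to 329 to 548 in sorts 2 and 3, with 0 of 9 tested passing (limma; 0 at an unadjusted p under 0.05). None of the markers of the myeloid, natural killer, B cell, dendritic or erythroid lists was below background on all arrays. The part of RNA from such cells in the receptor results was not tested. In sorted bulk samples, fewer cells with a transcript and less transcript per cell cannot be told apart.

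Of the 42 detected receptor genes, 4 were higher and 4 were lower in GFP+ cells (limma, group only, Benjamini-Hochberg adjusted p under 0.05 over all 16361 genes tested). Gpr12, Gpr160, Gpr174 and Gpr133 rose, and Gpr44, Gpr146 and Gpr34 were among those that fell. The 8 genes are 19.0% of the detected members, while 2.77% of all genes tested passed. Gpr12 and Gpr44 are among the 8 and were tested only because of signal in the group where they were higher. Members well above background on all 6 arrays numbered 27, and 5 of these passed, 18.5%. A fit of only the 13747 genes above background on all 6 arrays called 167 of them higher and 165 lower. The median difference was -0.04 over the members and -0.01 over all genes, whereas the median size of the difference was 0.48 over the members and 0.20 over all genes. In 13 members the 3 GFP+ arrays did not overlap the 3 GFP- arrays, 31.0% against 18.2% of all genes. Of these, 7 were higher in GFP+ and 6 lower, while 8.53% of all genes were higher without overlap and 9.69% lower. At an unadjusted p under 0.05 there were 14 members, while 2004 of all genes tested, 12.2%, were under it.

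**Figure D1:**
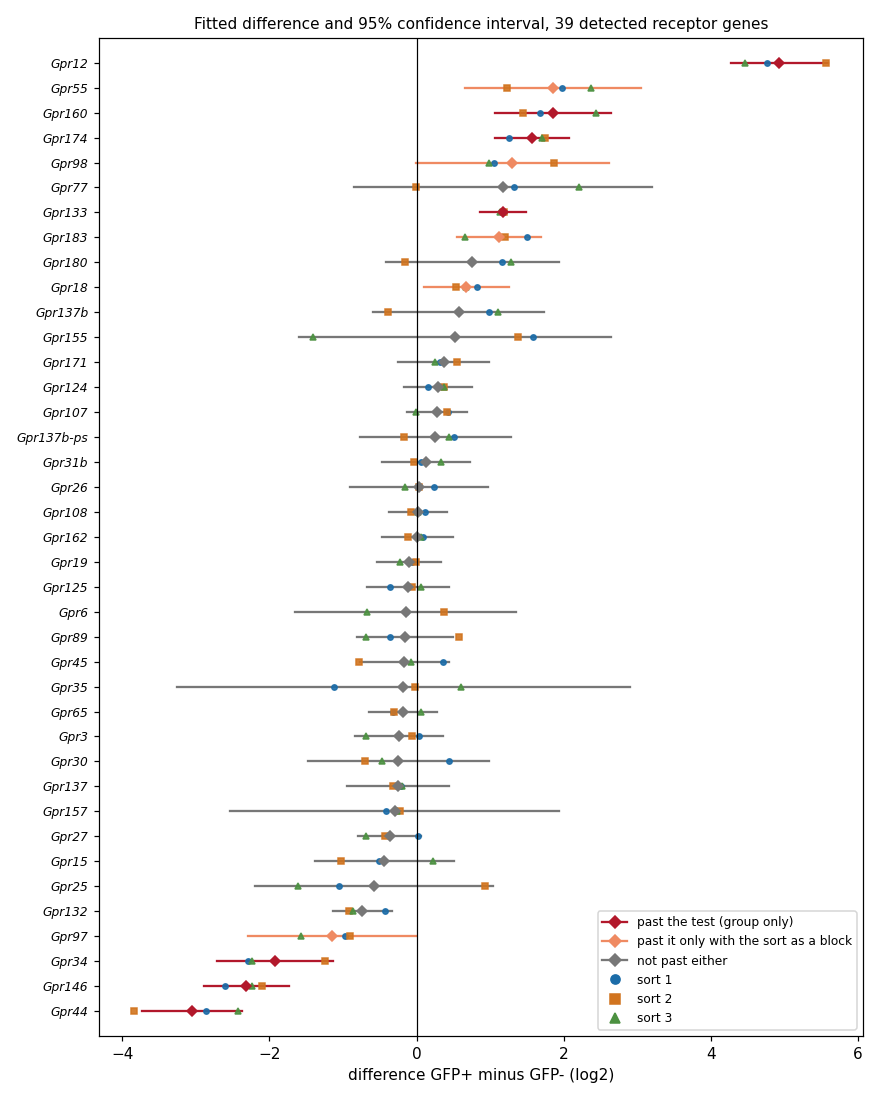
Fitted difference GFP+ minus GFP- (log2, diamonds) with its 95% confidence interval (lines) for 39 of the 42 detected receptor genes, and the difference in each sort (small symbols). Gpr12 lies at 4.93 and Gpr44 at -3.05.

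The numbered samples of a sort came from the same mice, and a fit with the sort as a block called 13 members, 8 higher and 5 lower. These were 31.0% of the members, against 8.0% of all genes tested in that fit. The additional genes were Gpr183, Gpr55, Gpr18 and Gpr98, which were higher, and Gpr97, which was lower. The sign was the same in all 3 sorts in 21 of the 42 members, compared with 52.4% of all genes. Slide 1 held both arrays of sort 1 and the GFP- array of sort 2, slide 2 held the GFP+ array of sort 2 alone, and slide 3 held sort 3. With slide as a block, in which the array on slide 2 adds nothing to the difference, 3 members were higher and 4 were lower. Over all 16361 genes tested in that fit, 172 were higher and 255 lower. Gpr174 and Gpr160 were lost and Gpr55 was gained.

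**Figure D2:**
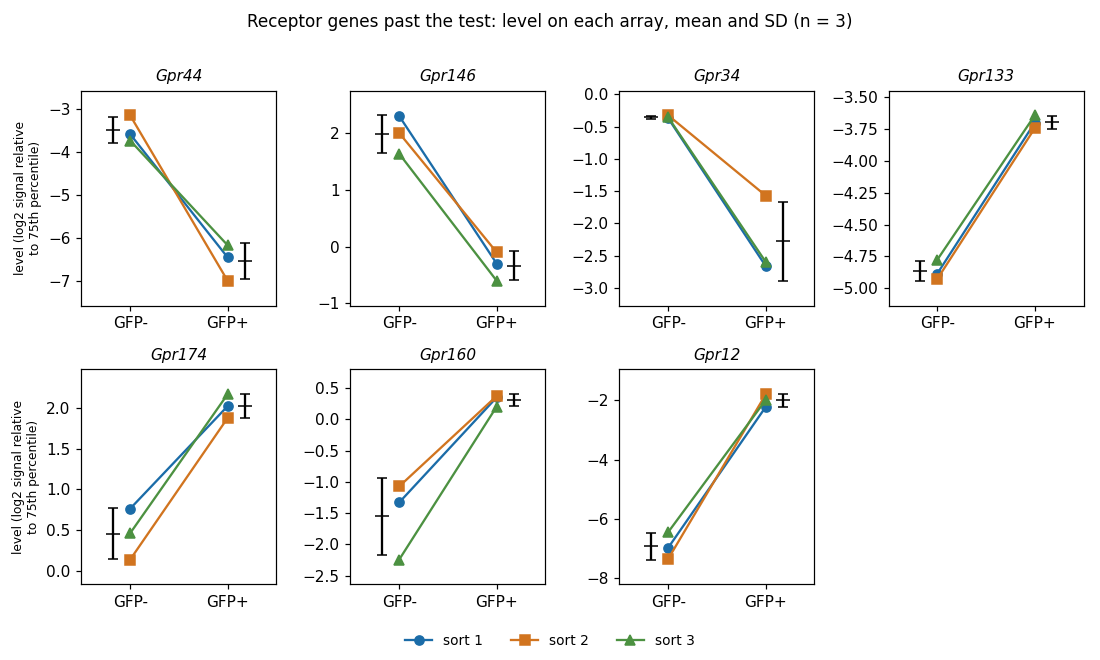
Level on each array (log2, minus the array's 75th percentile) of 7 receptor genes past the test, with lines that join the GFP- and GFP+ samples of a sort and bars for mean and SD (n = 3). Gpr44, Gpr146 and Gpr34 were lower on every GFP+ array, and Gpr133, Gpr174, Gpr160 and Gpr12 were higher.

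Receptors for lysophospholipids changed in opposite directions. Gpr174, a receptor for lysophosphatidylserine that signals through Gs in lymphocytes, stood at 2.02, 1.88 and 2.17 in GFP+ sorts 1, 2 and 3 and at 0.76, 0.14 and 0.46 in GFP-. Every GFP+ array lay above every GFP- array. Gpr174 rose 2.97-fold, from 0.45 ± 0.31 to 2.02 ± 0.15 (n = 3 each), a difference of 1.57 (SE 0.20, limma adjusted p = 0.0207). That probe spans chrX:104492005-104492064 (mm9), and its companion gave a difference of 1.08, with 0.84, 1.29 and 1.12 in the 3 sorts. The call was lost with the mean of both probes (adjusted p = 0.0576), with no filter on dim probes (adjusted p = 0.0613) and with slide as a block (adjusted p = 0.0655), where the difference was 1.63. It was 1.57 within slide 1 and 1.71 within slide 3.

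Gpr34 is the other Gpr-named lysophosphatidylserine receptor detected, and it is known from myeloid cells. It stood at -2.66, -1.57 and -2.60 in GFP+ sorts 1, 2 and 3 and at -0.37, -0.33 and -0.36 in GFP-. The GFP- arrays were close together, and the GFP+ array of sort 2 was the highest of its group. Gpr34 fell 3.80-fold, a difference of -1.93 (SE 0.32, limma adjusted p = 0.0426), with -2.29, -1.24 and -2.24 in the 3 sorts. The call was lost with no filter on dim probes (adjusted p = 0.0908). The summed myeloid marker level was 26.7, 310 and 36.7 on the GFP- arrays and 16.1, 288 and 38.9 on the GFP+ arrays of sorts 1, 2 and 3. Without sort 2 the Gpr34 difference was -2.27 (adjusted p = 0.0767), and the part of myeloid RNA in its level was not tested.

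Gpr55, a receptor for lysophosphatidylinositol, stood at -2.18, -3.27 and -3.23 in GFP+ and at -4.15, -4.51 and -5.61 in GFP- sorts 1, 2 and 3. The groups did not overlap, and the GFP- array of sort 3 was not well above background. The difference of 1.86 (SE 0.48) did not pass the test with group only (limma adjusted p = 0.156). In the fit with the sort block it passed (adjusted p = 0.0304), as it did with slide as a block (difference 2.24, adjusted p = 0.02). With normexp background correction, which here also meant an added offset and quantile normalization, the difference was 0.92.

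Gpr183 and Gpr18 are neighbours on chromosome 14, with probes 40.2 kb apart in mm9, and both were higher in GFP+ cells in each sort. Gpr183 is the oxysterol receptor EBI2, which positions lymphocytes in the spleen. It stood at 2.63, 2.57 and 1.91 in GFP+ and at 1.13, 1.36 and 1.25 in GFP- sorts 1, 2 and 3, without overlap. The difference was 1.12 (SE 0.23), or 2.18-fold, at a limma adjusted p of 0.0832 with group only and 0.0485 in the block fit. With group only it passed in 1 of 6 omissions of a single array, without the GFP+ array of sort 3 (1.35, limma adjusted p = 0.0409). Over these 6 its adjusted p was up to 0.260. It passed in 0 of 3 omissions of a sort, with an adjusted p up to 0.576.

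Gpr18, a receptor known to affect γδ T cells of the gut epithelium, stood at 3.83, 3.43 and 3.18 in GFP+ and at 3.00, 2.89 and 2.52 in GFP- sorts 1, 2 and 3. The lowest GFP+ array was above the highest GFP- array, and within each sort the difference was 0.83, 0.54 and 0.67. The fitted difference was 0.68 (SE 0.23, limma adjusted p = 0.298), and in the block fit it had an SE of 0.10 and an adjusted p of 0.0393. Gpr171, which lies in another cluster of related receptor genes on chromosome 3, differed by 0.37 (95% confidence interval -0.25 to 0.99) and did not pass in either fit.

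**Figure D3:**
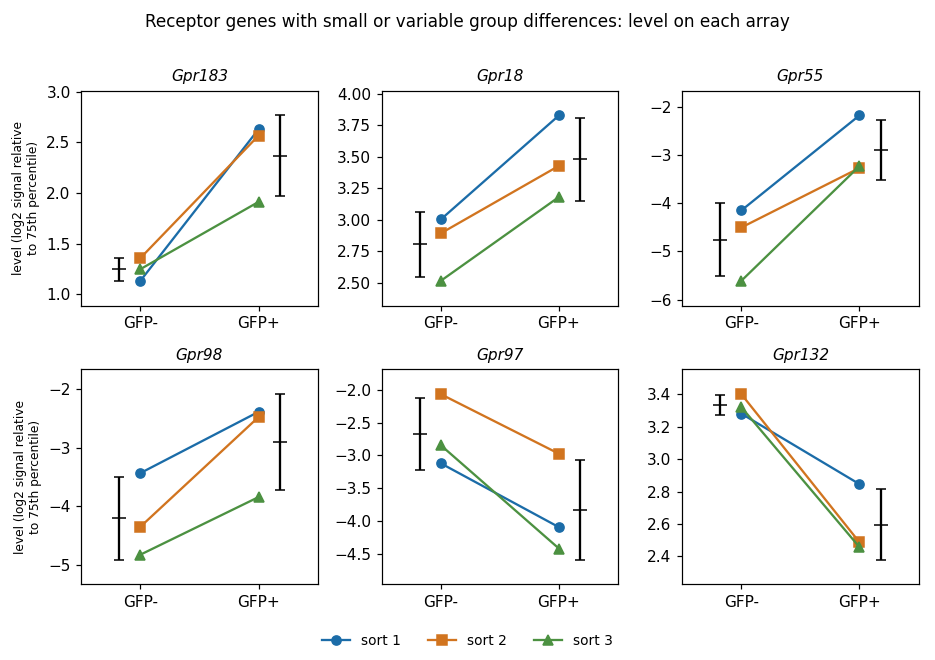
Level on each array (log2, minus the array's 75th percentile) of Gpr183, Gpr18, Gpr55, Gpr98, Gpr97 and Gpr132, with lines that join the samples of a sort and bars for mean and SD (n = 3). Gpr183, Gpr18, Gpr55 and Gpr98 are higher and Gpr97 and Gpr132 lower in the GFP+ sample of every sort, while the groups overlap in Gpr97 and Gpr98.

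Gpr44, now named Ptgdr2, encodes a receptor for prostaglandin D2 that is known from type 2 lymphocytes. It stood at -3.59, -3.16 and -3.74 in GFP- sorts 1, 2 and 3 and at -6.46, -7.00 and -6.18 in GFP+. All GFP- arrays were well above background and no GFP+ array was, so only a bound can be given. On the scale of these levels, Gpr44 was at least 5.90-fold lower in GFP+ cells (limma adjusted p = 0.00684 for the fitted difference of -3.05, SE 0.28). In such a bound, each array of the dim group stands at the lowest signal well above background on that array, or at its own signal where that was higher. With normexp background correction the difference was -0.95, so the bound does not hold in that setting. The gene still passed the test there (limma adjusted p = 0.0131).

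The remaining detected lipid and metabolite receptors did not pass either fit. Gpr31b differed by 0.12, Gpr30, now Gper1, by -0.25, and Gpr35 by -0.18 (95% confidence interval -3.26 to 2.91). The other Gpr35 probes differed by -0.11 and -0.27. In sort 1 they gave 0.56 and 0.52, against -1.12 for the probe used. Gpr119, Gpr17, Gpr81 and Gpr84 were not detected on 3 arrays.

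Gpr132, a receptor reported to respond to oxidised fatty acids and acidity, stood at 2.85, 2.49 and 2.46 in GFP+ and at 3.28, 3.40 and 3.32 in GFP- sorts 1, 2 and 3. The groups did not overlap. The difference of -0.74 (95% confidence interval -1.13 to -0.34) had a limma adjusted p of 0.0954 with group only and 0.0575 in the block fit, and passed only with an intensity trend in the variance model (0.0476). Over the other settings its adjusted p was 0.0575 to 0.729. Gpr65, a Gs-coupled proton receptor of lymphocytes, differed by -0.19 (95% confidence interval -0.65 to 0.27). Its levels were 2.79, 2.48 and 2.65 in GFP+ and 3.1, 2.79 and 2.59 in GFP- sorts 1, 2 and 3. Those ranges overlap, and an interval that spans 0 does not show that the groups are alike. Gpr4, also a proton sensor, was well above background on 1 array.

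Gpr3, Gpr6 and Gpr12 form a family that activates Gs and raises cyclic AMP without an added ligand, and Gpr12 had the largest rise of all detected Gpr-named genes. Gpr12 stood at -2.22, -1.80 and -1.99 in GFP+ sorts 1, 2 and 3 and at -6.98, -7.36 and -6.45 in GFP-. It was well above background on the 3 GFP+ arrays and on no GFP- array. Gpr12 was thus tested and ranked only because of its signal in GFP+ cells. On the scale of these levels, Gpr12 was at least 17.9-fold higher in GFP+ cells (limma adjusted p = 0.00189 for the fitted difference of 4.93, SE 0.27). The array places the sequence at chr5:147394520-147394579 (mm9). With normexp background correction the difference was 2.20, which also passed (limma adjusted p = 9.5e-04), but the bound does not hold in that setting. Its relatives did not pass in either fit, with Gpr3 at -0.24 (95% confidence interval -0.83 to 0.35) and Gpr6 at -0.15 (-1.65 to 1.36).

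Of 17 adhesion receptors on the array, 6 were detected, and 1 of these passed with group only. Gpr133, now Adgrd1, a Gs-coupled adhesion receptor, stood at -3.70, -3.74 and -3.64 in GFP+ and at -4.89, -4.93 and -4.78 in GFP- sorts 1, 2 and 3. The groups did not overlap, and the GFP- array of sort 3 was not well above background. Gpr133 rose 2.25-fold, a difference of 1.17 (SE 0.13, limma adjusted p = 0.0123). The call was lost with normexp background correction (0.51, adjusted p = 0.109), with an intensity trend (adjusted p = 0.0566) and with no filter on dim probes (adjusted p = 0.0674).

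Gpr98, now Adgrv1, a very large adhesion receptor best known from the inner ear, stood at -2.39, -2.47 and -3.84 in GFP+ and at -3.43, -4.35 and -4.82 in GFP- sorts 1, 2 and 3. The groups overlapped, but GFP+ was higher within each sort. The difference of 1.30 (SE 0.53) had a limma adjusted p of 0.413 with group only and 0.0473 in the block fit. The other Gpr98 probes were not well above background on any array.

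Gpr97 and Gpr56, now Adgrg3 and Adgrg1, are neighbours on chromosome 8, with probes 31.0 kb apart in mm9. Gpr97, which is known from neutrophils, stood at -4.09, -2.97 and -4.42 in GFP+ and at -3.12, -2.07 and -2.85 in GFP- sorts 1, 2 and 3. Both groups were highest in sort 2, the sort with the highest summed level of myeloid markers, and the GFP+ array of sort 3 was not well above background. The difference of -1.15 (SE 0.46) had a limma adjusted p of 0.404 with group only and 0.0372 in the block fit, and the part of myeloid RNA in it was not tested. Gpr56, an adhesion receptor found on many cytotoxic lymphocytes, was well above background on 1 GFP+ and 1 GFP- array and was not tested. Gpr124, now Adgra2, differed by 0.30 and Gpr125, now Adgra3, by -0.12, and neither passed.

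Gpr146 and Gpr160, receptors without an agreed ligand, moved in opposite directions. Gpr146, known for its effect on plasma cholesterol through the liver, stood at 2.30, 2.0 and 1.64 in GFP- sorts 1, 2 and 3 and at -0.30, -0.10 and -0.60 in GFP+. The groups lay far apart on every array. Gpr146 fell 4.97-fold, a difference of -2.31 (SE 0.23, limma adjusted p = 0.00963). On the array it is read at chr5:139872290-139872349 (mm9), 31.0 kb from the probe for Gpr30, which differed by -0.25 and did not pass.

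Gpr160 stood at 0.35, 0.37 and 0.20 in GFP+ and at -1.33, -1.07 and -2.24 in GFP- sorts 1, 2 and 3. The GFP+ arrays were close together, and the GFP- array of sort 3 was the lowest of all. Gpr160 rose 3.62-fold, a difference of 1.86 (SE 0.32, limma adjusted p = 0.0484), close to the threshold. The call was lost with slide as a block (1.93, adjusted p = 0.0569) and with no filter on dim probes (adjusted p = 0.105). The difference was 1.55 within slide 1 and 2.44 within slide 3.

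Gpr15, Gpr25 and Gpr77, grouped here as receptors for homing or peptides, did not pass in either fit. Gpr15, which directs T cells to the large intestine, stood at 0.81, -0.10 and 0.35 in GFP+ and at 1.33, 0.92 and 0.13 in GFP- sorts 1, 2 and 3. These ranges overlapped, and the difference was -0.44 (95% confidence interval -1.39 to 0.51). Gpr25 was well above background on 1 GFP+ and 2 GFP- arrays and differed by -0.58 (-2.19 to 1.03). Gpr77, now C5ar2, a second receptor for the complement fragment C5a, differed by 1.17 (-0.85 to 3.20), with 1.32, -0.0027 and 2.21 in the 3 sorts. The other Gpr77 probe gave 1.90, -0.06 and 3.58.

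Gpr77 and Gpr35 had their highest levels in sort 2, in both groups. Gpr77 stood at -1.28 in GFP+ and -1.27 in GFP- of sort 2, and at -4.36 to -2.15 on the other arrays. Gpr35 stood at -2.43 and -2.41 in sort 2 and at -6.29 to -4.91 elsewhere, where only GFP- of sort 1 was well above background. The neutrophil gene S100a9 followed the same split, with 7.14 and 6.87 in sort 2 and -1.10 to -0.06 elsewhere. Not all myeloid markers did. Itgam was highest in sort 3, at 4.59 in GFP+ and 4.78 in GFP-, against 3.13 to 3.59 in sorts 1 and 2. Macrophage genes differed within sorts as well, with C1qa at -2.11, 2.05 and -1.42 in GFP+ and at 1.65, 4.25 and -2.98 in GFP- sorts 1, 2 and 3. C1qa was thus lower in GFP+ in sorts 1 and 2, the direction of Gpr34, and higher in sort 3. The part of myeloid RNA in the levels of Gpr77 and Gpr35 was not tested.

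**Figure D4:**
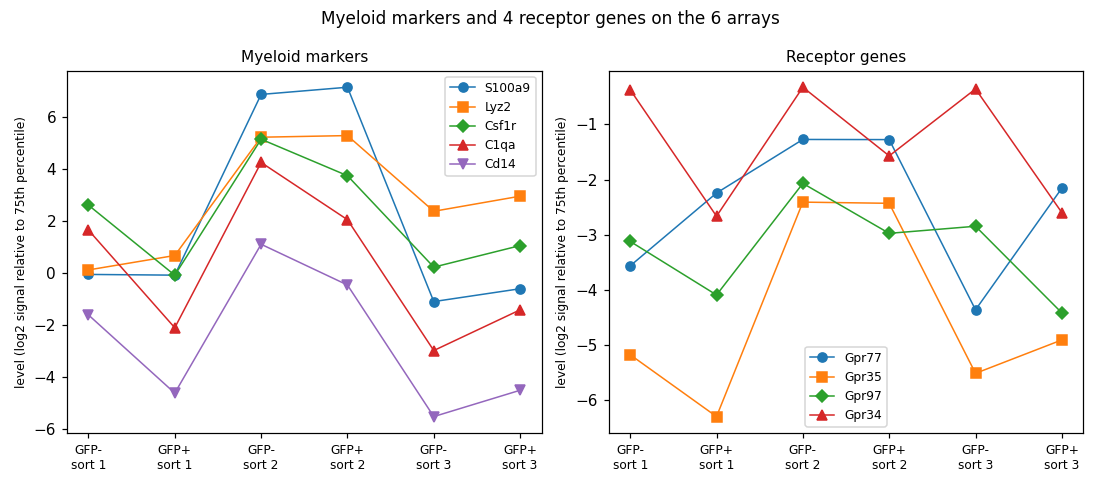
Level (log2, minus the array's 75th percentile) of 5 myeloid markers (left) and of Gpr77, Gpr35, Gpr97 and Gpr34 (right) on the 6 arrays, in order of sort. S100a9 reaches 6.87 and 7.14 in sort 2, where Gpr77 and Gpr35 are highest. Gpr34 is at -0.37 to -0.33 in the GFP- samples and at -2.66, -1.57 and -2.60 in GFP+ sorts 1, 2 and 3.

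The 8 detected members that act inside the cell or have no known ligand at the surface did not pass the test. Gpr107, Gpr108, Gpr137, Gpr137b, Gpr137b-ps, Gpr155, Gpr180 and Gpr89, several of them proteins of the Golgi or lysosome, had differences of -0.25 to 0.76, and 0 passed in either limma fit (0 at an unadjusted p under 0.05 with group only). Gpr137b and Gpr137b-ps are close copies, so their probes may share signal. Of the other orphan receptors, Gpr19, Gpr26, Gpr27, Gpr45, Gpr157 and Gpr162 had differences of -0.37 to 0.04 and did not pass.

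The 53 members that were not detected included 41 with no array above background for the probe used. Just outside the limit, 6 were well above background on 2 arrays, namely Gpr141, Gpr153, Gpr161, Gpr56, Gpr82 and Gpr84. Just inside it, 5 were so on exactly 3 arrays, among them Gpr12, Gpr44, Gpr25 and Gpr35. Gpr12 and Gpr44 were detected on the arrays of 1 group only, so they entered through the group in which they were high.

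Partners of these receptors were taken from a list of 100 genes for G protein subunits, receptor kinases, arrestins, cyclic AMP enzymes and phospholipase C or small GTPase effectors. Among the 77 tested, 2 were higher and 3 lower in GFP+ cells. Their median difference was -0.07, while 1.20% of all genes rose and 1.56% fell. Rapgef3, the exchange factor that cyclic AMP activates to switch on Rap, stood at 0.16, 0.16 and 0.12 in GFP+ and at -2.39, -2.59 and -2.72 in GFP- sorts 1, 2 and 3. Each group was tight and the gap was wide. Rapgef3 rose 6.55-fold, a difference of 2.71 (SE 0.14, limma adjusted p = 0.00187). The α-arrestin gene Arrdc3 rose by 1.54 (SE 0.22, adjusted p = 0.0259).

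Arrb1, a β-arrestin that ends receptor signalling, fell by 1.32 on the log2 scale (SE 0.21, limma adjusted p = 0.0394). Gna15, a G protein α subunit of blood cells that acts on phospholipase C, fell by 1.35 (SE 0.16, adjusted p = 0.0158). Arhgef11, an exchange factor for small GTPases that G proteins activate, fell by 1.87 (SE 0.28, adjusted p = 0.0328) and was well above background on 2 of 3 GFP+ arrays. In the block fit, 2 of the list rose and 8 fell, against 3.67% and 4.33% of all genes. Among the 5 additional genes were Gnaq (-0.86), the receptor kinase gene Adrbk2, now Grk3 (-1.44), and the cyclase gene Adcy6 (-0.90).

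**Figure D5:**
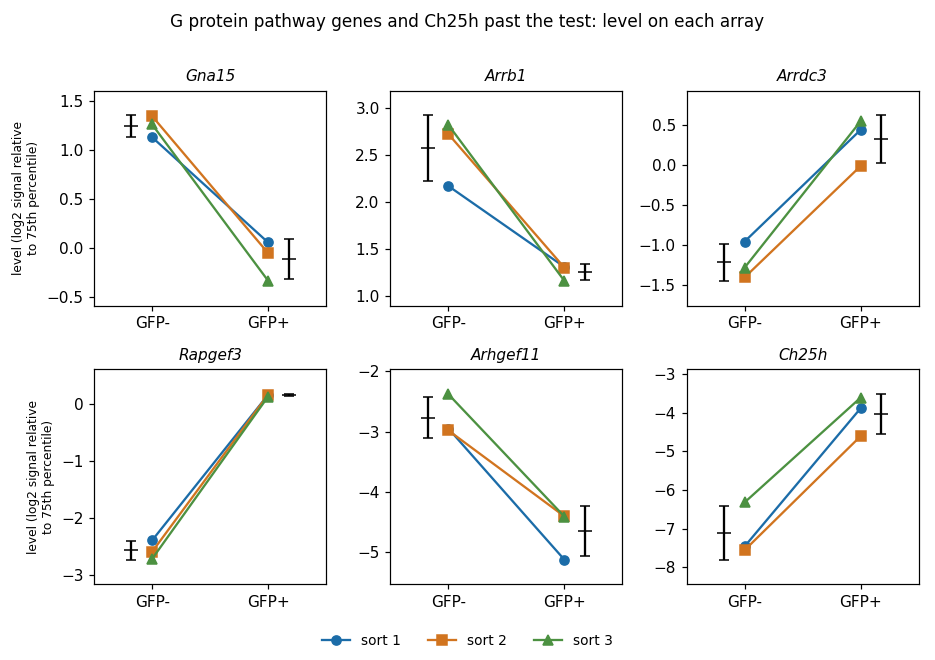
Level on each array (log2, minus the array's 75th percentile) of Gna15, Arrb1, Arrdc3, Rapgef3, Arhgef11 and Ch25h, with lines that join the samples of a sort and bars for mean and SD (n = 3). Rapgef3 lies at 0.12 to 0.16 in GFP+ and -2.72 to -2.39 in GFP- samples.

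Of 8 tested genes for enzymes that make or remove ligands of these receptors, 1 rose and 0 fell (limma; 1 had an unadjusted p under 0.05). Over all genes tested, 1.20% rose, 1.56% fell and 12.2% had an unadjusted p under 0.05. Ch25h, the cholesterol hydroxylase that starts the synthesis of the oxysterol ligand of Gpr183, stood at -3.89, -4.61 and -3.61 in GFP+ and at -7.46, -7.55 and -6.32 in GFP- sorts 1, 2 and 3. It was well above background on all GFP+ arrays and on no GFP- array, so it was tested only because of its signal in GFP+ cells. On the scale of these levels, Ch25h was at least 4.37-fold higher in GFP+ cells (limma adjusted p = 0.0252 for the fitted difference of 3.08, SE 0.43). Whether this bound holds with normexp background correction was not tested. Hsd3b7, which degrades that ligand, differed by -0.26 (adjusted p = 0.969), and Cyp7b1, which completes it, was below background on all arrays. Of 20 tested genes for other lipid, complement and adhesion receptors, 0 rose and 1 fell, Cysltr1, a cysteinyl leukotriene receptor, with -1.38 (SE 0.24, adjusted p = 0.0467). At an unadjusted p under 0.05 there were 7 of the 20. In the block fit 1 rose and 4 fell, against 3.67% and 4.33% of all genes.

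Promoter sequences of RefSeq (build GRCm38.p6), from 250 bases before to 50 after the start, were found for 29 of the 42 detected members and 5 of the 8 that passed, some with several starts. The T-box core GGTGTGA, searched on both strands, occurred in 1 of 40 member promoters and in 3.98% of all 32851 promoters. The ROR element TAGGTCA occurred in 0 of 40 and in 2.61% of all, and the cyclic AMP response element TGACGTCA in 1 of 40 and in 1.79% of all. None of the 3 motifs contains another. None of the 8 promoters of the passing members held any of the 3 motifs, which says only that these letters are absent from these windows. The Gpr98 promoter, at chr13:81633095-81633394 on the minus strand, is shown because it held the T-box core, in capitals after the start. The Gpr174 promoter, at chrX:107284096-107284395 on the plus strand, is shown for comparison as that of a gene that rose.
Gpr98: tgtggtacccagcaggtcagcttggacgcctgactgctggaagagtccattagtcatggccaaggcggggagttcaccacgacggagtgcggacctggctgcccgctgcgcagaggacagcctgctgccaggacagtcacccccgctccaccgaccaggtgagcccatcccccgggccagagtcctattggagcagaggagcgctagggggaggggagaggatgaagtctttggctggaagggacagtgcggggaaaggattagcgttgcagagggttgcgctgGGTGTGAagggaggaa
Gpr174: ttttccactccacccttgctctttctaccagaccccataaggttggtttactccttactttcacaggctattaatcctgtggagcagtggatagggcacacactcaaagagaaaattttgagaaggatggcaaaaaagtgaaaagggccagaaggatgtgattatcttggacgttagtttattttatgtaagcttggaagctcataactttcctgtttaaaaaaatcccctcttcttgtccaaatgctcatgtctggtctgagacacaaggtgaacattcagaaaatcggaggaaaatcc

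The calls rest on few arrays. Each omission of a sort or of an array kept the 16361 genes that were chosen with all arrays. Gpr12 and Gpr44 were well above background on 3 arrays only, all of 1 group. Without any of the sorts, both would miss the limit of 3 arrays among those left, so their detection was not tested again. Without sort 1 or without sort 2 limma called 0 of all genes (1351 and 1265 at an unadjusted p under 0.05), and so 0 members, with 12 and 14 members at an unadjusted p under 0.05. Without sort 3 only Gpr12 passed among the members (adjusted p = 0.0277), while adjusted p-values of the other called genes were 0.0525 to 0.263. Over these 3 omissions the differences of these genes kept their sign, at 4.61 to 5.16 for Gpr12, -3.35 to -2.65 for Gpr44 and -2.42 to -2.17 for Gpr146. The ranges were 1.16 to 1.19 for Gpr133, 1.48 to 1.72 for Gpr174, -2.27 to -1.74 for Gpr34 and 1.56 to 2.06 for Gpr160.

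When single arrays were left out, Gpr12 and Gpr44 passed each time, with adjusted p-values up to 0.0421, and Gpr146 each time but without GFP+ array 1 (adjusted p = 0.0554). Gpr12 and Gpr44 stayed in the test because genes were chosen with all arrays. Without a GFP+ array Gpr12 would miss the limit of 3 arrays, and so would Gpr44 without a GFP- array. Gpr133 passed only without GFP- array 3, Gpr174 only without GFP- array 1, Gpr34 only without GFP+ array 2 and Gpr160 only without GFP- array 3. Their adjusted p-values were otherwise up to 0.0700, 0.1003, 0.152 and 0.182.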

How the data were processed

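Per the file headers, the scanner files hold linear spot intensities, background subtracted and detrended but not scaled between arrays. The software was Agilent Feature Extraction 10.7.3.1, per the submitters' processing notes. The other columns used are 0 or 1 flags of the same software, per the file headers. The deposited value table holds the authors' intensities, with 75th percentiles of 1497 to 1506; over probes above background on all arrays, its log2 offset from the scanner intensity had an interquartile range of at most 0.0014.

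Log2 intensities of the 4 spots of a probe were averaged without outlier flags, control spots were left out, and each array's own 75th percentile was then taken off. At least 50% of the spots had to carry the flag for a probe to count as above background. The brightest probe stood for each of 30199 scanner names, and genes above background on 3 or more arrays were tested, 16361 in all, with limma 3.58.1 in R 4.3.3 (group only, moderated variances, Benjamini-Hochberg adjusted p-values, threshold 0.05). Arrays of a sort came from the same mice, and their deviations from the group means correlated at 0.82, 0.84 and 0.86 over 13747 genes, so the sort was also fitted as a block. The number of arrays limits the precision. The setting called normexp background correction added an offset of 50 intensity units and used quantile normalization in place of the 75th percentile. With quantile normalization alone, Gpr12 differed by 4.94, Gpr44 by -3.01 and Gpr133 by 1.26. The parts of the offset and of the background correction in the smaller differences of dim genes were not tested.

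Current symbols came from RefSeq accessions (GRCm38.p6) for 89 of the 95 members, 20 of which were renamed. Probe positions are those of the array files, in mm9, and exons were not annotated. Members, lists, motifs and alternatives were chosen with earlier results of these data known. Named in full were members past either fit, those on a list of immune receptors, and those with the same sign in each sort and a difference of at least 1. Results for a few members are not reported here. The scripts were tested on simulated data. Figures were drawn in Python 3.11.15.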

Additional observations from a re-analysis of the deposited data

How the results depend on the processing

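Over the 11 settings that kept all arrays, 3 to 5 members were lower. The count of higher members was 1 with no filter on dim probes, 2 with genes above background on all 6 arrays and 8 with the sort as a replicate block, against 4, and 3 or 4 in the others. The replicate block kept all 8 calls and the main 5 partner calls, and the partner genes that fell went from 3 to 8. Partner genes that fell were 0 with no filter and 1 with slide as a block, and those that rose were 1 with median scaling and 1 with no filter. The median difference of the members was 0.0541 with median scaling, which moved the median of all genes to 0.0855, 0.0366 with no filter and -0.1191 with genes above background on all arrays. Without 1 sort or 1 array, 0 to 3 members were higher, 0 to 4 were lower, 0 to 2 partner genes rose, 0 to 1 fell, and the members' median was -0.0459 to 0.0535. The Gpr35 difference changed sign in 4 of these omissions, at 0.0022 to 0.7992, and was -1.24 at the lowest. No other named member changed sign. Over all genes, 197 were higher and 256 lower with group only, 601 and 708 with the replicate block, and 92 and 153 with no filter. Signal near background limits the size of differences of dim genes. Under normexp Gpr12 went to 2.20, Gpr44 to -0.95 and Gpr133 to 0.51, and the uncalled Gpr25 to -0.17.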

Other observations

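Gpr157 followed the sort rather than the group. Gpr157 stood at 5.38 in GFP+ and 5.64 in GFP- of sort 3, and at 2.97 to 3.58 on the 4 arrays of sorts 1 and 2. Sort 3 had less RNA, younger mice and its own slide, and these cannot be told apart. Within sorts, Gpr157 differed by -0.42, -0.22 and -0.26.

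Some of the detected receptor genes lie next to each other. Gpr18 and Gpr183 were both higher in GFP+ cells within each sort, whereas Gpr146 fell by 2.31 on the log2 scale and its neighbour Gpr30 differed by -0.25. Gpr34 differed by -1.93 and its neighbour Gpr82, 26.5 kb away, was above background on 2 arrays only.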
